A study of Mus musculus with 29 samples.

Results

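The 9 guanylate binding protein genes Gbp2, Gbp3, Gbp4, Gbp5, Gbp6, Gbp7, Gbp8, Gbp9 and Gbp10 were followed across 29 mRNA libraries of a mouse melanoma line. They were taken by gene symbol from a table of 28229 genes, and all 9 of the 9 passed the filter on low counts together with 14935 genes in all. Guanylate binding proteins are large GTPases of the dynamin superfamily that interferon induces in most cell types. They assemble on the vacuoles and surfaces of intracellular microbes, break them open, and feed bacterial products to the caspase-11 and AIM2 inflammasomes. Interferon gamma (IFNγ) signals through its receptor to promoters that hold the GAS element or the interferon-stimulated response element (ISRE), the latter bound by IRF1, and transforming growth factor beta (TGFβ) is a cytokine that restrains many immune responses.

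NMM, the line studied, carries mutant NRAS in every library and grew in IMDM with 10% fetal calf serum; the study asked how the order and timing of T cell cytokines act on tumour cells. Cells received medium, IFNγ at 100 ng/ml or TGFβ at 10 ng/ml for 2, 6, 12 or 24 h, were washed with PBS, and then received medium, IFNγ, TGFβ or a mix of both for 24 h. This gave 7 sequences of stimuli, each with 4 libraries that differ in the duration of the first stimulus. Controls had medium in both periods and are called medium below. IFNγ or TGFβ came second, after medium, in 2 sequences, and first, before medium, in a further 2. The last 2 held both cytokines, as TGFβ then IFNγ or as IFNγ then TGFβ. A single library received medium for 24 h and then the mix. The labels name 1 cell line and no separate cultures, so libraries of different duration serve as the 4 replicates, and p-values measure the spread between these libraries, which may be technical in part.

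Library totals lay between 17179530 and 23668015 counts, and the 9 genes together took from 0.00206% to 0.644% of them. Values are CPM, a gene's counts scaled to TMM-adjusted library size, as mean ± SD over the 4 libraries of a sequence where no single library is named. Changes are log2 fold changes with their standard error (SE) from edgeR's quasi-likelihood test, and a gene was called at a Benjamini-Hochberg adjusted p below 0.05 over the 14935 genes. Of the 8 listed melanocyte lineage markers, Tyr, Tyrp1, Dct and Mlana were not in the table of genes. Among the 4 that were, Mitf lay between 8.40 and 20.2 CPM and Gpnmb between 26.4 and 276 CPM. Sox10 reached at most 0.135 CPM and Pmel at most 0.444 CPM. Leukocytes also express Gbp genes, and the 5 of their 8 listed markers that were in the table summed to between 2.95 and 6.18 CPM in every library, with Cd68 the main contributor and Ptprc (CD45) at most 0.172 CPM. The 6 h medium library was low for Gbp2, Gbp5 and Gbp7 against the other 3 medium libraries, and less so for Gbp3. The counts of called genes are given without it where they differ. In bulk RNA, fewer cells that express a gene and less RNA per cell cannot be told apart.

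The members lie in 2 clusters on GRCm38. On chromosome 3, all on the plus strand, are Gbp5 (ENSMUSG00000105504, 142493978 to 142522344), Gbp7 (ENSMUSG00000040253, 142530342 to 142550149), Gbp3 (ENSMUSG00000028268, 142560026 to 142573209) and Gbp2 (ENSMUSG00000028270, 142620602 to 142638008). On chromosome 5, all on the minus strand, are Gbp8 (ENSMUSG00000034438, 105014150 to 105139540), Gbp9 (ENSMUSG00000029298, 105077630 to 105139539), Gbp4 (ENSMUSG00000079363, 105115767 to 105139586), Gbp10 (ENSMUSG00000105096, 105215699 to 105239533) and Gbp6 (ENSMUSG00000104713, 105270702 to 105293698). Coding sequences of the 5 chromosome 5 genes were 90.2% to 98.4% identical over 10 pairs, with Gbp6 and Gbp10 the closest. Those of the 4 chromosome 3 genes were 64.3% to 78.3% identical over 6 pairs, with Gbp3 and Gbp7 the closest.

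RefSeq promoter windows of GRCm38.p6, 300 bases each from 250 before a transcript start in RefSeq, were found for 4 of the 9 members, all on chromosome 3. They are shown because IFNγ acts on this family through the ISRE and the GAS element. Both strands were searched for the ISRE, taken as GAAA, any 2 bases and GAAA again (on the other strand TTTC, 2 bases and TTTC), and for the GAS element, taken as TTC, any 3 bases and GAA, and matches are in capitals.

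Gbp5 (chr3:142496684-142496983, plus strand): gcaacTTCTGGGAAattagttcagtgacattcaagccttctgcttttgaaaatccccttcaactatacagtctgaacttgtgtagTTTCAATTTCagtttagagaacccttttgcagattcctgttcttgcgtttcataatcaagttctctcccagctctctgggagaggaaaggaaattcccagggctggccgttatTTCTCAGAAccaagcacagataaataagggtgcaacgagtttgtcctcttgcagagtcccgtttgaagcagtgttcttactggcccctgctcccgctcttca
Gbp7 (chr3:142530086-142530385, plus strand): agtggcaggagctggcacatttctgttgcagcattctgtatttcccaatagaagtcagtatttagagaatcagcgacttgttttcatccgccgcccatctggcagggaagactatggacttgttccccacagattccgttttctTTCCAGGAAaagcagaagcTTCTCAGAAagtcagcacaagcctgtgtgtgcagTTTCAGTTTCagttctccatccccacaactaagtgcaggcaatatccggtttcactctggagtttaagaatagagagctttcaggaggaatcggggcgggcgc
Gbp3 (chr3:142559794-142560093, plus strand): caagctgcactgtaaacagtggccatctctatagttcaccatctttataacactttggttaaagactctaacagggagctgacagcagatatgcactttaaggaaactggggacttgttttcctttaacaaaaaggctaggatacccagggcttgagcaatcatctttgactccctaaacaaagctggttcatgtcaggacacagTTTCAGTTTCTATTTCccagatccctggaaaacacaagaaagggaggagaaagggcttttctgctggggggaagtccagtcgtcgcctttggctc
Gbp2 (chr3:142620413-142620712, plus strand): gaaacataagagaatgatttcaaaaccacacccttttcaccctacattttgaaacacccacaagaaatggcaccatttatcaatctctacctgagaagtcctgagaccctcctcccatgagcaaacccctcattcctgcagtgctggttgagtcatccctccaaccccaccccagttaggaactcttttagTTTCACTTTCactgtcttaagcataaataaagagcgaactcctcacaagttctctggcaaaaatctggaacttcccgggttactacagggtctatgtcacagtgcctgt

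An ISRE match stood in all 4 of these windows, against 3.44% of 32851 promoter windows of the same length. Counted from the RefSeq start that the window is built on, it lay 53 bases before that of Gbp7, 59 before that of Gbp2 and 165 before that of Gbp5. Gbp3 had 2 overlapping matches, 45 and 39 bases before its RefSeq start. These starts differ from the gene starts given above, lying 2956 bases after that of Gbp5, 61 after that of Gbp2, 18 after that of Gbp3 and 6 before that of Gbp7. The windows of Gbp5 and Gbp7 held 2 GAS matches each, and 8.30% of all windows held at least 1. The second RefSeq window of Gbp3 (chr3:142560106-142560405, plus strand) held 0 matches to either. Gbp4, Gbp6, Gbp8, Gbp9 and Gbp10 were not in this promoter table.

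Reads can be shared within the family, which limits how far the members can be told apart. Of the words of 100 bases in annotated transcripts, 73.5% of those of Gbp10 and 64.5% of those of Gbp6 also occurred in transcripts of another gene, mostly Gm43302 and each other. For the other 7 members the share was 10.0% in Gbp7, 4.39% in Gbp8 and at most 1.65% in the rest. With words of 50 bases it was higher, at 18.1% in Gbp8, 12.7% in Gbp7, 8.05% in Gbp9 and 7.70% in Gbp4. Gm43302 overlaps 46.3% of the exonic bases of Gbp10 and 29.0% of those of Gbp6. Nothing in the sources used here says how the authors' counting treated reads that fit several genes, so values of Gbp6 and Gbp10 are the most uncertain, and those of Gbp8 and Gbp7 are touched to a smaller extent.

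**Figure D1:**
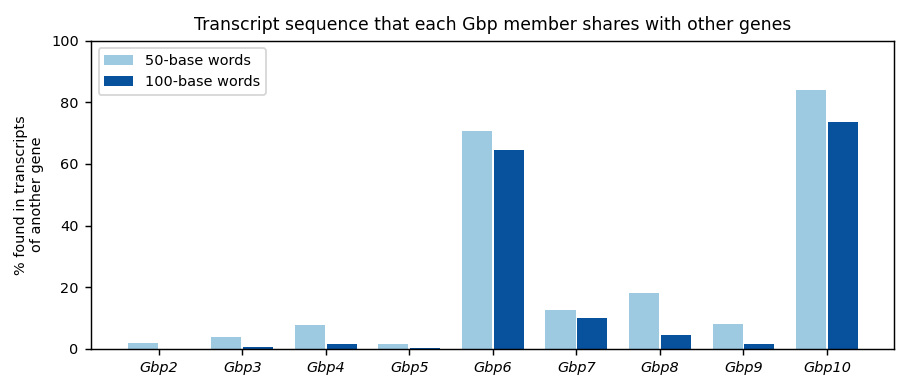
Share of the 50-base and 100-base words in each member's annotated transcripts that also occur in transcripts of another gene (y axis, percent; x axis, the 9 members). Gbp10 and Gbp6 stand apart at 73.5% and 64.5% of 100-base words, while the other members are at 10.0% or less, and at 18.1% or less of 50-base words.

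In medium the members differed widely in level. Per kilobase of exon, mean CPM was 206 ± 26.3 for Gbp3, 75.8 ± 24.8 for Gbp2, 35.3 ± 10.5 for Gbp7 and 24.3 ± 1.28 for Gbp9 (SD, n = 4). The next were Gbp5 at 6.73 ± 2.43 and Gbp6 at 3.41 ± 0.247, and the lowest were Gbp8 at 0.732 ± 0.0347, Gbp4 at 0.505 ± 0.0808 and Gbp10 at 0.372 ± 0.0643 (SD, n = 4). Over the 4 libraries, the ranges of neighbours in this order overlapped for Gbp2 with Gbp7, Gbp7 with Gbp9 and Gbp5 with Gbp6, each time through the 6 h library, which held 38.9 for Gbp2, 19.9 for Gbp7 and 3.19 for Gbp5. The ranges of the other neighbours did not overlap. In cells that ended with IFNγ the order changed, with Gbp2 first at 1050 ± 72.6 and Gbp3 next at 517 ± 19.0 CPM per kilobase (SD, n = 4). Gbp4, eighth of the 9 in medium, reached 47.6 ± 7.24, close under Gbp5 at 54.8 ± 1.77 with overlapping ranges (37.9 to 54.1 against 52.2 to 56.1). These places depend on the length used. Per kilobase of the longest transcript, Gbp4 stood at 0.833 above Gbp8 at 0.745 in medium, and with IFNγ at 78.6 under Gbp5 at 96.8 without overlap (62.6 to 89.3 against 92.3 to 99.1).

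IFNγ as the second stimulus raised 8 of the 9 members against medium, among 22.7% of all tested genes called higher (21.2% were lower). The median log2 fold change of the 9 was 2.22, against -0.01 over all tested genes. Gbp4 rose most, by 6.55 (93.7-fold), followed by Gbp10 with 4.97 (31.4-fold) and Gbp2 with 3.74 (13.4-fold). Every member was higher with IFNγ than in the medium library of the same duration at all 4 durations, 36 of 36 differences. The 9 members of a library are not independent, so here and below such counts rest on 4 pairs of libraries.

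On chromosome 3, Gbp2, a member that is prenylated and restricts Toxoplasma, lay at 211, 97.9, 221 and 233 CPM in the medium libraries of 2, 6, 12 and 24 h and at 2480, 2470, 2770 and 2810 CPM with IFNγ. The 2 sets were far apart, and the 6 h medium library was low. Gbp2 rose by 3.74 (SE 0.66, edgeR adjusted p = 7.72e-05). Gbp5, another prenylated member that has been linked to the NLRP3 inflammasome, lay at 48.5, 21.2, 57.8 and 51.3 CPM in medium and at 372, 347, 365 and 371 CPM with IFNγ. The IFNγ libraries were nearly level, and Gbp5 rose by 2.96 (SE 0.51, edgeR adjusted p = 5.82e-05). Gbp7 lay at 213, 112, 233 and 236 CPM in medium and at 890, 782, 949 and 957 CPM with IFNγ. All IFNγ libraries were above all medium libraries, and Gbp7 rose by 2.14 (SE 0.56, edgeR adjusted p = 0.00351).

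Gbp3, the member with the highest level per kilobase in medium, lay at 689, 548, 738 and 718 CPM there and at 1720, 1670, 1610 and 1750 CPM with IFNγ. The ranges did not overlap, yet the log2 fold change of 1.28 (SE 0.66) did not pass the test (edgeR adjusted p = 0.123). In a fit of the medium and IFNγ libraries alone, Gbp3 was called higher at 1.32 (edgeR adjusted p = 6.51e-05), and all 9 members were then called. The share of all genes called in that fit is not given here. Without all 12 and 24 h libraries Gbp3 was also called, at 1.44 (edgeR adjusted p = 3.31e-05). The fit over all groups shares 1 estimate of the spread, to which the TGFβ libraries of 12 and 24 h described below contribute.

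On chromosome 5, Gbp4 lay at 3.38, 3.52, 4.68 and 3.54 CPM in medium and at 347, 284, 405 and 390 CPM with IFNγ, a rise of 6.55 (SE 0.43, edgeR adjusted p = 1.26e-10). Gbp10 lay at 1.10, 1.44, 1.68 and 1.55 CPM in medium and at 44.6, 36.6, 53.3 and 44.6 CPM with IFNγ, a rise of 4.97 (SE 0.31, edgeR adjusted p = 6.13e-11). Per kilobase of the union of exons they reached 47.6 and 11.6 CPM with IFNγ against 3.42 CPM for Gbp8. Gbp8 lay at 2.56, 2.48, 2.66 and 2.38 CPM in medium and at 11.7, 11.7, 12.2 and 11.5 CPM with IFNγ, a rise of 2.22 (SE 0.28, edgeR adjusted p = 1.54e-06). The spread of Gbp8 between libraries was small in both sets.

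Gbp6 lay at 18.7, 22.3, 20.2 and 20.0 CPM in medium and at 65.8, 65.6, 57.6 and 63.8 CPM with IFNγ, a rise of 1.63 (SE 0.38, edgeR adjusted p = 0.00119). Gbp9 lay at 121, 120, 134 and 128 CPM in medium and at 411, 373, 380 and 395 CPM with IFNγ, a rise of 1.62 (SE 0.49, edgeR adjusted p = 0.00949). Neither gene had a low 6 h medium library, unlike Gbp2, Gbp5 and Gbp7. Without that library edgeR called 8 members as well.

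**Figure D2:**
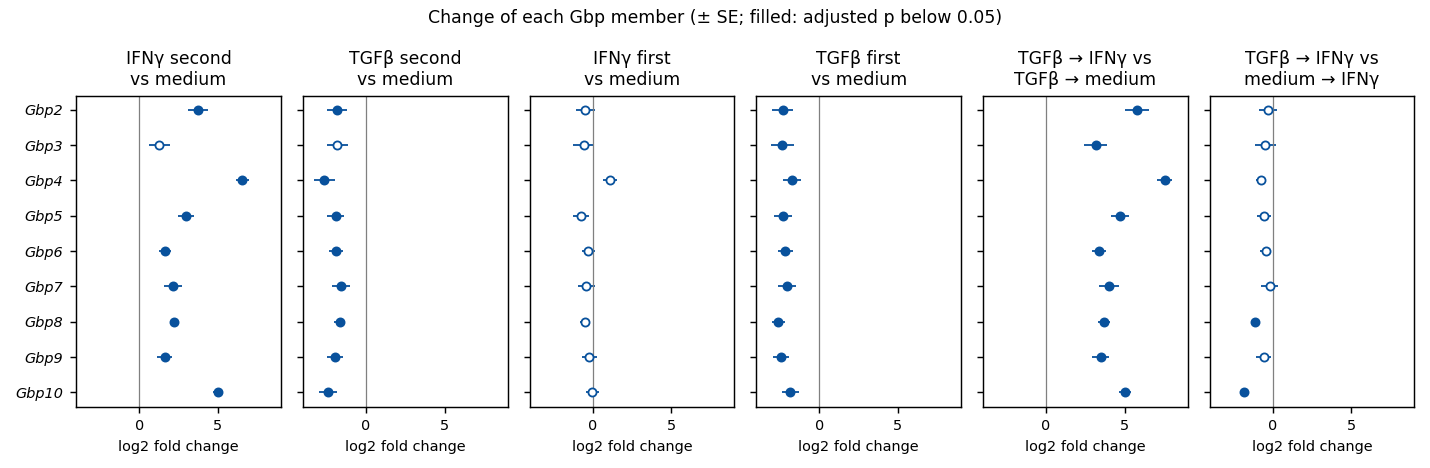
Log2 fold change (x axis, ± SE from edgeR) of each member (y axis) in 6 comparisons; filled points passed an adjusted p of 0.05 and open points did not. All members but Gbp3 were called with IFNγ second, none with IFNγ first, all 9 with TGFβ first, and Gbp8 and Gbp10 in the comparison of TGFβ then IFNγ with medium then IFNγ.

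IFNγ given first and then replaced by medium for 24 h left 0 of 9 members called by edgeR (0.382% of genes were called higher and 0.408% lower), and DESeq2 called 0. An unadjusted p below 0.05 was reached by 1 gene, Gbp4, at 5.97, 8.82, 6.97 and 11.3 CPM after 2, 6, 12 and 24 h of IFNγ against at most 4.68 CPM in medium. Its 4 libraries lay above all medium libraries, with a log2 fold change of 1.12 (SE 0.43, edgeR adjusted p = 0.204). At the other end, Gbp5 lay at 51.4, 48.7, 21.2 and 13.6 CPM, with a log2 fold change of -0.72 (edgeR adjusted p = 0.513). Its 2 and 6 h libraries lay within the range of medium, its 12 h library at the foot of that range and its 24 h library below it.

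Against cells that ended with IFNγ, cells whose IFNγ was replaced by medium had all 9 members lower, among 20.8% of genes called lower (20.8% were higher). The log2 fold changes ran from -1.83 for Gbp9 to -5.43 for Gbp4 with a median of -2.72, and all 36 differences at matched durations were below 0. Gbp9 lay at 133, 129, 82.8 and 114 CPM after IFNγ had been withdrawn, against 373 CPM or more with IFNγ as the second stimulus. The call of Gbp3 (-1.85, edgeR adjusted p = 0.0303) was lost without the replicate block for duration (-1.66, adjusted p = 0.104). It was also lost without any 1 of the 4 libraries of IFNγ then medium or without the 12 or 24 h library of medium then IFNγ (edgeR adjusted p = 0.0571 to 0.0949), and without all 12 h (edgeR adjusted p = 0.0717) or all 24 h libraries (edgeR adjusted p = 0.0780).

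TGFβ as the second stimulus lowered 8 of 9 members against medium, among 11.6% of all tested genes called lower (11.7% were higher). Log2 fold changes ran from -1.56 for Gbp7 to -2.64 for Gbp4, with a median of -1.89. The size differed with how long the cells had been in medium before TGFβ, although TGFβ itself was always given for 24 h. The median difference of the 9 from the medium library of the same duration was -0.91 at 2 h, -0.97 at 6 h, -3.88 at 12 h and -2.50 at 24 h. These are differences between single libraries, with no replicate at any duration.

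Gbp2 lay at 130, 104, 14.9 and 41.8 CPM in the medium then TGFβ libraries of 2, 6, 12 and 24 h, and fell by 1.81 (SE 0.63, edgeR adjusted p = 0.0398). Gbp5 lay at 25.8, 22.2, 3.17 and 8.98 CPM, and fell by 1.91 (SE 0.53, edgeR adjusted p = 0.0114). Gbp7 lay at 144, 109, 21.9 and 56.5 CPM, and fell by 1.56 (SE 0.57, edgeR adjusted p = 0.0496). The 12 h library was lowest in all 3. Their 2 h libraries, and the 6 h libraries of Gbp2 and Gbp5, lay within the medium range, whose low end is the 6 h medium library (97.9, 21.2 and 112 CPM). Gbp3 lay at 497, 464, 40.7 and 123 CPM, all below the medium range, but the log2 fold change of -1.81 (SE 0.69) did not pass the test (edgeR adjusted p = 0.0615). DESeq2 called Gbp3 lower too (-1.82, DESeq2 adjusted p = 0.0434), as did edgeR without the 6 h medium library (-2.11, adjusted p = 0.0387), which brought the count to 9.

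The chromosome 5 members had the same shape over durations. Gbp4 lay at 1.09, 1.12, 0.0512 and 0.243 CPM, and fell by 2.64 (SE 0.67, edgeR adjusted p = 0.00619). Gbp10 lay at 0.435, 0.502, 0.0512 and 0.0971 CPM, and fell by 2.43 (SE 0.57, edgeR adjusted p = 0.00339). Both were within a few counts of 0 at 12 h. Gbp6 lay at 9.41, 9.60, 1.38 and 3.54 CPM and fell by 1.89 (edgeR adjusted p = 0.00305). Gbp8 lay at 1.41, 1.00, 0.0512 and 0.776 CPM and fell by 1.67 (edgeR adjusted p = 0.00201). Gbp9 lay at 61.5, 60.9, 9.47 and 21.4 CPM and fell by 1.99 (edgeR adjusted p = 0.00660). For all 5 genes every TGFβ library lay below every medium library.

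The count of called members rests on the model and on the later durations. It was 4 of 9 without the replicate block for duration, 3 in a fit of the 2 sequences alone, 3 when the 12 h libraries of every sequence were left out, 5 when those of 24 h were and 3 without both. It was 5 without the 24 h medium library and 5 without the 12 h medium then TGFβ library. The call of Gbp7 was lost without any 1 of the 4 medium then TGFβ libraries or the 12 or 24 h medium library (edgeR adjusted p = 0.0600 to 0.166). That of Gbp2 was lost without the same libraries other than the 2 h one (edgeR adjusted p = 0.0550 to 0.139), and that of Gbp5 without the 24 h medium or the 12 h medium then TGFβ library (edgeR adjusted p = 0.0514 and 0.0505).

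TGFβ as the first stimulus, followed by 24 h of medium, lowered all 9 members, among 14.5% of genes called lower (14.5% were higher). Log2 fold changes ran from -1.72 for Gbp4 to -2.60 for Gbp8 with a median of -2.30. The median difference from medium of the same duration was -0.54 after 2 h, -1.19 after 6 h, -4.82 after 12 h and -5.49 after 24 h.

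Gbp2 lay at 146, 77.6, 7.74 and 3.33 CPM after 2, 6, 12 and 24 h of TGFβ, against 97.9 to 233 CPM in medium, and fell by 2.33 (SE 0.66, edgeR adjusted p = 0.00972). Gbp3 lay at 476, 394, 14.8 and 7.86 CPM and fell by 2.34 (SE 0.72, edgeR adjusted p = 0.0167). The 2 later libraries of both genes were far under the 2 earlier ones. Gbp8, the member with the lowest log2 fold change, lay at 0.752, 0.623, 0.115 and 0.115 CPM, and fell by 2.60 (SE 0.41, edgeR adjusted p = 6.72e-05). Gbp4 lay at 3.61, 0.479, 0.287 and 0 CPM, and fell by 1.72 (SE 0.59, edgeR adjusted p = 0.0314). Its 2 h library was within the medium range and its other 3 below it. At 24 h its count of 0 allows up to 0.172 CPM, which is at least 20.6-fold lower than the 3.54 CPM of the medium library of 24 h.

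Gbp10 lay at 0.953, 0.575, 0 and 0 CPM and fell by 1.83 (SE 0.52, edgeR adjusted p = 0.0101). Its 2 counts of 0 allow up to 0.172 CPM each, at least 9.75-fold and 9.0-fold lower than medium at 12 and 24 h. This floor of 3 counts covers counting error only. With these genes at their bounds, the medians at 12 and 24 h were again -4.82 and -5.49. The remaining members Gbp5, Gbp6, Gbp7 and Gbp9 fell as well, with log2 fold changes from -2.04 to -2.44.

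In a model with a slope on log2 hours for each sequence, 7 of 9 members had a negative slope in TGFβ then medium, among 1.23% of genes with a called negative slope (0.1% had a positive one). Slopes ran from -0.73 for Gbp8 to -1.93 log2 units per doubling of the time for Gbp3. Gbp8 (edgeR adjusted p = 0.359) and Gbp10 (-1.22, edgeR adjusted p = 0.0525) were not called. Without the 12 h library of that sequence 2 members were called, and without its 24 h library 0. The difference of these slopes from those of medium was called for 0 of 9 members by edgeR (0.0067% of genes lower, 0% higher), with 9 at an unadjusted p below 0.05 and adjusted p-values from 0.0624 to 0.883; DESeq2 was not run on it.

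In medium then TGFβ 0 slopes were called by edgeR (0% of genes in either direction) and 0 by DESeq2, with 7 of 9 at an unadjusted p below 0.05 in edgeR and a median of -0.56. In the other 5 sequences edgeR and DESeq2 called 0 slopes of the members, against 0.0803% of genes with a positive and 0.127% with a negative slope in TGFβ then IFNγ, 0.0067% with a negative slope in IFNγ then TGFβ and 0% elsewhere. At most 1 member had an unadjusted p below 0.05 in any of them.

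**Figure D3:**
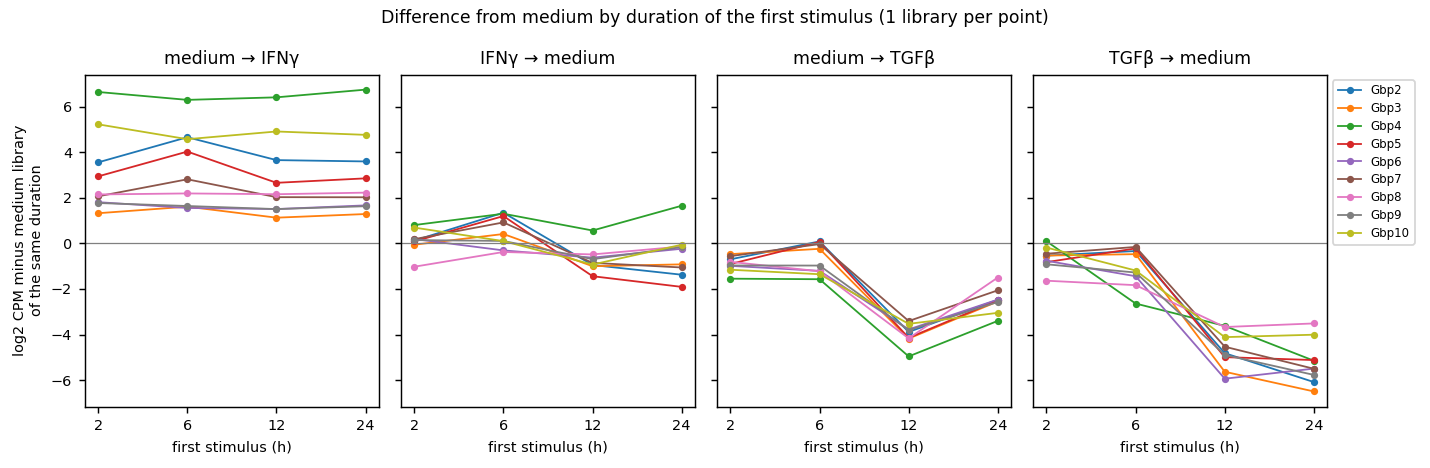
Difference in log2 CPM between 1 library and the medium library of the same duration (y axis) against the duration of the first stimulus in hours (x axis), 1 line per member, in 4 sequences. With IFNγ second all lines lie above 0, and those of Gbp2 and Gbp5 are highest at 6 h, at 4.65 and 4.02; in both TGFβ sequences the 9 members lie between -3.41 and -5.93 at 12 h, while at 2 h they lie between -1.64 and 0.09.

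The count of 9 called members for TGFβ first became 6 without the replicate block for duration, 1 in a fit of the 2 sequences alone and 4 with the libraries of 12 h, of 24 h or of both left out. Leaving out single libraries gave 7 to 9. The call of Gbp4 was lost without the 12 h medium library or any 1 of the 6, 12 and 24 h TGFβ then medium libraries (edgeR adjusted p = 0.0778 to 0.105) and that of Gbp3 without the 12 h TGFβ then medium library (edgeR adjusted p = 0.0582). The summed melanocyte markers were 163 to 290 CPM in medium, 61.1 to 96.2 CPM in medium then TGFβ and 37.6 to 84.2 CPM in TGFβ then medium, mostly Gpnmb. Whether that has a part in the lower Gbp levels was not tested. Leukocyte markers summed to 3.27 to 5.70 CPM in TGFβ then medium, which overlaps 4.98 to 5.77 CPM in medium.

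TGFβ then medium, where TGFβ was withdrawn 24 h before harvest, was compared with medium then TGFβ, where it was present until harvest. edgeR called 0 of 9 (0% of genes higher and 0% lower). None passed an unadjusted p of 0.05 (0 of 9), and DESeq2 called 0. Log2 fold changes ran from -0.93 for Gbp8 to 0.92 for Gbp4, with a median of -0.45. Between single libraries, however, the median difference was 0.11 at 2 h, -0.29 at 6 h, -0.93 at 12 h and -3.03 at 24 h. At 24 h all 9 members were lower in the cells that had spent the last 24 h in medium. Gbp2 was at 3.33 CPM there against 41.8 CPM with TGFβ in the last 24 h.

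IFNγ raised the family also in cells that had first been given TGFβ. Against TGFβ then medium, TGFβ then IFNγ had all 9 members higher, among 18.8% of genes called higher (17.6% were lower), with log2 fold changes from 3.16 for Gbp3 to 7.53 for Gbp4 and a median of 3.99. Gbp3 lay at 1710, 1660, 1220 and 845 CPM in TGFβ then IFNγ, against 7.86 to 476 CPM in TGFβ then medium. Gbp4 lay at 219, 183, 227 and 223 CPM, against 0 to 3.61 CPM. The 2 sets did not overlap for either gene.

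The interaction, which asks whether the log2 response to IFNγ differed with and without TGFβ first, was positive for all 9 members, with a median of 1.75. edgeR called 0 of them (0.321% of genes were called higher and 0.0737% lower), while 6 had an unadjusted p below 0.05. DESeq2 called 1, Gbp8, at 1.54 (DESeq2 adjusted p = 0.0397) against 1.49 in edgeR (adjusted p = 0.215). The value of Gbp10 was 0.03 (SE 0.41). By construction the interaction equals the change with TGFβ first in cells that ended with IFNγ, less that in cells that ended in medium. The medians of these changes were -0.55 and -2.30, so a positive value does not mean a higher level with IFNγ after TGFβ.

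Compared with medium then IFNγ, TGFβ then IFNγ had 2 of 9 members lower, among 7.19% of genes called lower (8.64% were higher). These 2, both on chromosome 5, were Gbp10 and Gbp8. Gbp10 lay at 17.9, 13.6, 12.1 and 9.28 CPM against 36.6 to 53.3 CPM with medium first, and fell by 1.80 (SE 0.24, edgeR adjusted p = 1.1e-05). Gbp8 lay at 6.34, 5.98, 4.62 and 5.04 CPM against 11.5 to 12.2 CPM, and fell by 1.11 (SE 0.26, edgeR adjusted p = 0.00474). Neither gene's ranges overlapped, and all 4 differences at matched durations were below 0 for each.

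The other 7 were not called, with log2 fold changes from -0.74 for Gbp4 to -0.19 for Gbp7. Over all members, the median difference from medium then IFNγ of the same duration was -0.29 at 2 h and -0.28 at 6 h. It was -0.47 at 12 h and -0.94 at 24 h, each between single libraries. Gbp4 lay at 219, 183, 227 and 223 CPM against 284 to 405 CPM without overlap (-0.74, SE 0.31, edgeR adjusted p = 0.112). Gbp7 lay at 901, 814, 855 and 678 CPM against 782 to 957 CPM, ranges that overlapped (-0.19, SE 0.54, edgeR adjusted p = 0.864). As a share of the mean level in medium then IFNγ, TGFβ then IFNγ held 29.5% ± 8.07 for Gbp10, 46.7% ± 6.79 for Gbp8 and 59.8% ± 5.73 for Gbp4, and 90.8% ± 10.7 for Gbp7 (SD, n = 4). In a fit of these 2 sequences alone 5 members were called lower, the additional 3 being Gbp4 (-0.74, adjusted p = 0.000193), Gbp6 (-0.43, adjusted p = 0.00102) and Gbp9 (-0.53, adjusted p = 0.0149), again all on chromosome 5. The share of all genes called lower in that fit is not given here. The clusters overlapped in the size of the change, however. In the fit over all groups, Gbp5 stood at -0.55 (SE 0.47), Gbp3 at -0.46 (SE 0.65) and Gbp2 at -0.28 (SE 0.59), against -0.43 (SE 0.36) for Gbp6. The share held was 73.8% ± 20.1 for Gbp5 and 74.2% ± 4.12 for Gbp6 (SD, n = 4).

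To set the chromosome 5 members against the chromosome 3 members within each library, the log2 ratio of each to the summed chromosome 3 counts was compared. This comparison was chosen after these values had been seen, so it is a description with no test. Relative to chromosome 3, TGFβ then IFNγ was lower than medium then IFNγ by a log2 ratio of -1.52 for Gbp10, -0.84 for Gbp8 and -0.26 for Gbp9, without overlap of the 4 libraries of each. The difference was -0.47 for Gbp4 and -0.16 for Gbp6, with overlap. Gbp6 and Gbp10, whose coding sequences are the closest pair, were thus at opposite ends of this order.

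**Figure D4:**
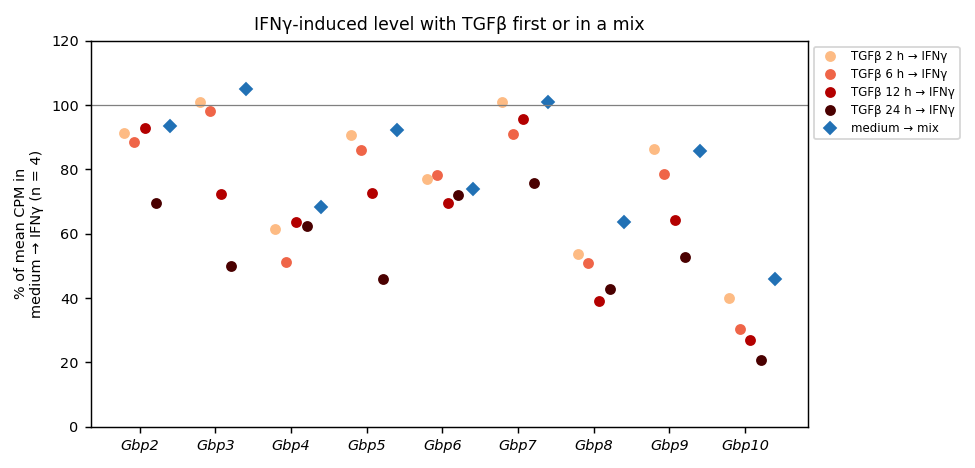
CPM of each member (x axis) in the 4 libraries of TGFβ then IFNγ (circles, coloured by the hours of TGFβ) and in the library of medium then mix (diamonds), as a percent of the mean in medium then IFNγ (y axis, n = 4). Gbp10 lies lowest in both, at 20.7% to 40.0% and 45.8%, and Gbp3 and Gbp7 reach 101% after 2 h of TGFβ.

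The single library in which IFNγ and TGFβ were given together for 24 h has no replicate, so its values carry no test. Against the medium then IFNγ library of 24 h, the mix held 0.459 times the CPM of Gbp10 (20.5 against 44.6), 0.625 times that of Gbp4 (244 against 390) and 0.653 times that of Gbp8 (7.51 against 11.5). The ratio was 0.731 for Gbp6 and 0.845 for Gbp9. The 4 chromosome 3 members were at 0.878 (Gbp2), 0.905 (Gbp5), 0.944 (Gbp7) and 1.01 (Gbp3). All 5 chromosome 5 members thus had lower ratios than all 4 chromosome 3 members in this library.

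IFNγ before TGFβ had 0 of 9 members called by edgeR against medium then TGFβ (0.0268% of genes higher, 0.067% lower), with 4 at an unadjusted p below 0.05. The largest change was that of Gbp4, at 1.21, 5.44, 3.48 and 5.59 CPM in IFNγ then TGFβ against 0.0512 to 1.12 CPM in medium then TGFβ (2.68, SE 0.67, edgeR adjusted p = 0.0875). Its ranges did not overlap. DESeq2 called this gene (2.91, DESeq2 adjusted p = 0.0294), as did edgeR without the filter on low counts (2.68, adjusted p = 0.0182) and without the 2 h library of IFNγ then TGFβ (3.03, adjusted p = 0.0397). The smallest was that of Gbp8, at 0.743, 1.27, 0.572 and 1.08 CPM (0.20, edgeR adjusted p = 0.911).

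TGFβ after IFNγ was compared with medium after IFNγ, and edgeR called 0 of 9 members (3.63% of genes higher, 3.64% lower), with 3 at an unadjusted p below 0.05. The 36 differences at matched durations were all below 0, but they come from 4 pairs of libraries and the members are not independent. The median log2 fold change was -0.62. Gbp4 lay at 1.21, 5.44, 3.48 and 5.59 CPM against 5.97, 8.82, 6.97 and 11.3 CPM (-1.08, SE 0.43, edgeR adjusted p = 0.144), with no overlap. Gbp3 lay at 526, 683, 267 and 311 CPM against 661, 728, 368 and 379 CPM (-0.29, SE 0.65, edgeR adjusted p = 0.875), with overlap. A fit of these 2 sequences alone called all 9 lower, DESeq2 called 1 (Gbp8, DESeq2 adjusted p = 0.0264) and edgeR without all 12 and 24 h libraries called 1 (Gbp9, -0.57, adjusted p = 0.0235). The shares of all genes called in these alternatives are not given here, so their counts cannot be set against a background. The interaction for the TGFβ response with and without IFNγ first was called for 0 members by edgeR (0% of genes in either direction) and by DESeq2, with 1 at an unadjusted p below 0.05 and a median of 1.29.

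With both cytokines in sequence, the members were higher where IFNγ came last. TGFβ then IFNγ against IFNγ then TGFβ had 8 of 9 members higher, among 16.4% of genes called higher (16.2% were lower), with a median log2 fold change of 2.78. The differences ran from 1.69 for Gbp3 (SE 0.67, edgeR adjusted p = 0.0563, not called) to 5.77 for Gbp4 (SE 0.41, edgeR adjusted p = 7.83e-10). Gbp3 was called in the fit of these 2 sequences alone (1.65, adjusted p = 0.000137). All 36 differences at matched durations were above 0.

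By mean level over the 7 sequences, medium then IFNγ was the highest and TGFβ then IFNγ the next for all 9 members. Their ranges overlapped for Gbp3 and Gbp7 only. For 8 members medium followed, then IFNγ then medium and IFNγ then TGFβ. Neighbours below the IFNγ-ended sequences overlapped in range for these members, except medium and IFNγ then medium in Gbp8 (2.52 ± 0.119 and 1.78 ± 0.404 CPM; SD, n = 4). Gbp4 differed, with IFNγ then medium next at 8.28 ± 2.36 CPM (SD, n = 4), above IFNγ then TGFβ at 3.93 ± 2.05 and medium at 3.78 ± 0.605. The 2 lowest places were taken by TGFβ then medium and medium then TGFβ in every member, the former lowest in 7 and the latter in Gbp4 and Gbp10, with overlapping ranges throughout.

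The profiles of the members over the 29 libraries, as log2 CPM, were alike. Pearson's r to the mean profile of the 9, each scaled to unit variance, lay between 0.945 for Gbp4 and 0.991 for Gbp7, and the pair farthest apart was Gbp3 and Gbp4 (r = 0.81). The 5 other genes with the most similar profile were Igtp (r = 0.997), Tgtp2 (0.993), F830016B08Rik (0.993), Ifi47 (0.991) and Erap1 (0.991). Igtp and Tgtp2 encode immunity-related GTPases, which also act on pathogen vacuoles, and Erap1 trims peptides for MHC class I. These correlations are a description over libraries that share sequences of stimuli and durations.

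Other genes of the pathway were taken from fixed lists, chosen with earlier results of these data known. Their counts stand beside the shares of all tested genes given above, which were 22.7% higher and 21.2% lower with IFNγ second, 11.7% and 11.6% with TGFβ second, 14.5% and 14.5% with TGFβ first, and 8.64% and 7.19% with TGFβ before IFNγ. Of 18 tested genes of IFNγ signalling, IFNγ second left 10 higher and 2 lower, with a median of 0.75. Batf2, a transcription factor, was at 0.225 ± 0.173 CPM in medium and 65.1 ± 12.5 with IFNγ (SD, n = 4; 8.11, edgeR adjusted p = 1.02e-11). Irf1, which binds the ISRE, was at 38.5 ± 12.6 and 505 ± 28.3 CPM (SD, n = 4; 3.72, edgeR adjusted p = 9.58e-10). With TGFβ second, 1 of the 18 was higher and 6 lower, and with TGFβ first 10 were lower, among them Irf1 (-0.98, edgeR adjusted p = 0.00796). Before IFNγ, TGFβ left 1 of the 18 lower, Batf2 (-0.85, edgeR adjusted p = 0.0219), while Irf1 stood at -0.10 (edgeR adjusted p = 0.838).

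Of 7 tested immunity-related GTPases, 7 were higher with IFNγ second (median 2.78), 6 lower with TGFβ second and 7 lower with TGFβ first. With TGFβ before IFNγ 0 of them were called, against 2 of the 9 Gbp members called lower. The median log2 fold change there was -0.55 in both families. Gm12250 rose by 5.10, Tgtp1 by 4.15 and Igtp by 3.15 with IFNγ. Among 9 tested relatives of the Gbp genes, 5 were higher and 1 lower with IFNγ. Gbp11, a further gene of the family, rose by 3.75 (edgeR adjusted p = 3.12e-07) and was lower by a log2 fold change of -1.66 with TGFβ before IFNγ (edgeR adjusted p = 0.00158), at no more than 5.60 CPM in any library. Gbp2b reached at most 0.142 CPM and was not tested.

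Of 10 tested inflammasome and lysis genes, which act downstream of Gbp proteins, 6 were higher and 2 lower with IFNγ, 4 lower with TGFβ second and 7 lower with TGFβ first. Pycard, also on this list, reached at most 0.0507 CPM and was not tested, and Il1b was not in the table of genes. Nlrp3 reached at most 1.35 CPM. Casp4, the gene of caspase-11, rose by 2.47 with IFNγ (edgeR adjusted p = 2.02e-07) and was lower with TGFβ before IFNγ (-0.81, edgeR adjusted p = 0.0233). Of the 11 ATG8 conjugation genes, which help place Gbp proteins on vacuoles, 1 was higher and 3 lower with IFNγ, with a median of -0.02. Those 3 were Map1lc3b (-0.53), Map1lc3a (-0.48) and Gabarap (-0.45), all ATG8 proteins. The ATG8 genes Gabarapl1 (-0.15) and Gabarapl2 (-0.02) were not called. Of the 8 listed genes of prenylation and of the processing of prenylated proteins, 2 were higher and 2 lower, with a median of -0.01. For this list both counts are near the shares of all tested genes, as is the count of lower genes in the ATG8 list.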

How the data were processed

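The authors deposited 1 table of raw, unnormalised read counts per Ensembl gene for 29 libraries of stranded mRNA. The submitters' processing notes name HISAT, without a version, and GRCm38. No counting tool, annotation release or strand setting is given in the sources used here.

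edgeR 4.0.16 (R 4.3.3) was run on these counts with filterByExpr at min.count 10, TMM factors, a quasi-likelihood fit with a term per sequence and a factor for duration (18 residual degrees of freedom), and Benjamini-Hochberg adjustment over 14935 genes at 0.05. SE is the log2 fold change over the root of F. Slopes on log2 hours had 14 residual degrees of freedom. Log2 CPM used a prior count of 2. DESeq2 1.42.0 was an alternative, and the others were RLE factors, no filter, no replicate block, fits of the groups compared alone and leaving out libraries. Shares of all genes called are given for the main fit only. On simulated data for IFNγ second against medium (14413 genes), edgeR recovered 85.4% of the tested genes changed by a log2 of 1 and 95.9% of those changed by 2. These rates are not for the members, whose SE in the data ran from 0.28 (Gbp8) to 0.66 (Gbp3) in that comparison. They do not cover the other comparisons.

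The replicate numbers are the durations, a labelled factor that the model holds as a block. Deviations from group means correlated at matched durations by 0.106 to 0.499 in the comparisons of TGFβ before IFNγ, IFNγ before TGFβ, IFNγ after TGFβ, TGFβ after IFNγ and TGFβ withdrawn, and by -0.0409 to 0.359 in the others, where not every value was above 0.1.

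Exons, coding identity and shared words came from GENCODE M21, whose coordinates for the 9 members equal those deposited, and promoters from RefSeq GRCm38.p6, whose starts are its own. Protein sequences were not analysed here. Values per kilobase use the union of exons. The members and gene lists were chosen with earlier results of these data known. Per-library values are given for all 9 members in medium, IFNγ second and TGFβ second. In the other comparisons values are given for some members, mostly the extremes and those called differently. List genes are named among the 3 with the largest IFNγ change, with exceptions named after their values were seen. These exceptions are Gbp2b, Pycard, Il1b, Nlrp3, Gabarapl1, Gabarapl2 and the markers Mitf, Gpnmb, Sox10, Pmel, Tyr, Tyrp1, Dct, Mlana, Cd68 and Ptprc.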

Additional observations from a re-analysis of the deposited data

Results flagged for a closer look

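In 63 sets of 4 libraries (9 members in 7 sequences), 3 held a library far from the other 3 relative to the range of the set, where chance gives about 1 in 20. Gbp2 was low in the 6 h medium library, at 97.9 CPM against 211 CPM in the nearest. Gbp4 was high in the 12 h medium library, at 4.68 CPM against 3.54 CPM, and in the 2 h library of TGFβ then medium, at 3.61 CPM against 0.479 CPM.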

How the results depend on the processing

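The count of members called higher with IFNγ second was 8 to 9, with IFNγ after TGFβ 9 and for the order of the cytokines 8 to 9 under every alternative run, and no result changed direction while called. RLE factors changed no call. Without the replicate block for duration 4 members were called for TGFβ second, 6 for TGFβ first and 8 for IFNγ withdrawn, and the chromosome 3 sum for TGFβ first (-1.61) and the chromosome 5 sum for TGFβ second (-1.74) were no longer called.

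Fits of the 2 groups alone called 3 members lower for TGFβ second, 1 for TGFβ first, 9 for TGFβ after IFNγ and 5 for TGFβ before IFNγ. In them the chromosome 3 sum was -3.02 for TGFβ first (lost) and -0.40 for TGFβ after IFNγ (gained), and the chromosome 5 sum was -3.07 for TGFβ first and -2.06 for TGFβ second (both lost), -0.64 for TGFβ after IFNγ and -0.65 for TGFβ before IFNγ (both gained). These fits have fewer samples and their own estimate of the spread.

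The settings added after seeing the data left out durations. Without all 12 h libraries 3 members were called for TGFβ second and 4 for TGFβ first, without all 24 h libraries 5 and 4, and without both 3 and 4. The chromosome 3 sum for TGFβ first was then -1.59, -1.60 and -0.48 and not called, and the chromosome 5 sum for TGFβ second -1.50 without the 12 h libraries. Without both durations the chromosome 5 sum was called at -0.60 for TGFβ after IFNγ and -0.48 for TGFβ before IFNγ, and 1 member was called for TGFβ after IFNγ.

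DESeq2 called 1 member for IFNγ before TGFβ, 1 for TGFβ after IFNγ and 1 for the interaction of IFNγ with TGFβ first, and no filter 1 for IFNγ before TGFβ. With them the chromosome 3 sum for TGFβ second was -1.77 and -1.76, both called. The main fit gave nearly the same value, -1.76, and did not call it. Per kilobase of the longest transcript, means in IFNγ and medium were 630 and 251 CPM for Gbp3, 78.6 and 0.833 for Gbp4, 96.8 and 11.9 for Gbp5, and 14.9 and 4.79 for Gbp6.

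Leaving out 1 library at a time gave 5 to 9 members for TGFβ second, 7 to 9 for TGFβ first, 8 to 9 for IFNγ withdrawn, 0 to 1 for IFNγ before TGFβ and 0 to 8 for slopes in TGFβ then medium. The chromosome 3 sum ran from -3.09 to -1.76 for TGFβ first, lost without the 12 h TGFβ then medium library, and from -2.08 to -1.38 for TGFβ second, gained without the 2 h or the 6 h medium library. Levels under 1 CPM, as those of Gbp4, Gbp8 and Gbp10 with TGFβ, rest on few counts, which limits how precisely the size of the called differences is known.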
